A study of Homo sapiens with 12 samples.

Results

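The Hedgehog pathway was followed through 8 genes in HEK293 cells transfected with MED12 constructs or with a hairpin RNA against MED12. The genes were set as a list by name, and a row of the value table was taken for a gene when the platform annotation gave that gene as the row's single symbol. Of the 9 listed genes, 8 had 1 such row each: SHH, SMO, HHIP, SUFU, GLI1, GLI2, GLI3 and NKX2-2. The table held 22011 rows, of which 14432 had a single symbol. The expression of PTCH1 was not analysed here; its promoter sequence was.

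HEK293 is an established human embryonic kidney line. The 12 arrays form 4 groups of 3 biological replicates, and cells of every group were transfected with the lipid reagent Lipofectamine 2000, harvested 48 h later and sorted for viability and GFP. Controls, called GFP here, received nuclear localized GFP in the vector pcDNA5/TO. A second group received full-length MED12 and another received MED12 with the C-terminal PQL and Opa domains deleted, both tagged at the N terminus with nuclear localized GFP and carried in pcDNA5/TO. The remaining group received MED12 shRNA 5, a short hairpin RNA driven by the H1 promoter in another GFP vector, peGFP-C1. Hairpin and vector therefore cannot be told apart in comparisons of that group with GFP or with either MED12 construct. There is 1 hairpin sequence only. Every group is a transient transfection read in sorted cells, so endogenous and plasmid-borne MED12 are present together in the overexpression groups.

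Hedgehog ligands such as SHH bind the receptor PTCH1 and so release the membrane protein SMO from inhibition, a step that in vertebrates takes place at the primary cilium. SMO signalling frees the GLI transcription factors from SUFU, which holds them in the cytoplasm. GLI2 then acts mainly as an activator, GLI3 is processed to a repressor when the pathway is off, and GLI1 is an activator whose own gene is a GLI target. PTCH1 and HHIP, which bind the ligand and restrain the pathway, are GLI targets as well, and NKX2-2 is a homeobox gene induced by high Hedgehog signalling in the ventral neural tube. MED12 belongs to the kinase module of the Mediator complex and is a known partner of GLI3, which makes GLI target genes a natural readout of a change in MED12.

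GLI proteins recognise the consensus motif GACCACCCA. The motif was searched on both strands, as GACCACCCA or TGGGTGGTC, in the RefSeq promoter windows of GRCh38.p14, which run from 250 bases before a transcript's start to 50 bases after it. Windows were present for 7 of the 9 listed genes, 13 windows in all; GLI1 and GLI3 had no entry. A full match was found in 1 window, for a transcript start of PTCH1, against 83 of 35116 windows (0.236%) in the whole table. The window is shown because PTCH1 is a textbook GLI target and because its letters hold the motif, which is in capitals. It lies on the minus strand at chr9:95509217-95509516, and the motif begins 172 bases before the start site.

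PTCH1: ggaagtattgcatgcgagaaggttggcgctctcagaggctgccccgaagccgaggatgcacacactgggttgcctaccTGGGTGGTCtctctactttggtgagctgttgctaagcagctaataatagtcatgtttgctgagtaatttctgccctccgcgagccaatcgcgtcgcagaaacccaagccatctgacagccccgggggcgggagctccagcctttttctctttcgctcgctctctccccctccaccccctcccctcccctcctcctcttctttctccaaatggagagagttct

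With 1 letter allowed to differ, 3 of the 13 windows (23.1%) held a match, where 6.74% of all windows did. All 3 were of PTCH1, which supplied 5 of the 13 windows, and a pair of them overlap and hold the same site. By gene, 1 of the 7 with windows had a match, so the share of windows rests on 1 gene. The second PTCH1 site, read in a pair of overlapping windows, matched 8 of the 9 letters. It is printed with 10 bases on either side, and this whole stretch spans chr9:95507393-95507421 on the minus strand of GRCh38.p14.

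PTCH1 second site: cagggaaggcGAGCACCCAgacgggggcc

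The windows of GLI2, SMO, SUFU, HHIP, NKX2-2 and SHH held no match of 8 or more letters. These are matches of letters and not measured binding, and enhancers outside the windows were not searched.

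The deposited values are log2 expression values, 1 per row and array, and no detection call comes with them. MED12, which checks the labels, averaged 4.41 ± 0.34 with GFP, 10.68 ± 0.06 with full-length MED12, 8.92 ± 0.32 with the deleted form and 3.67 ± 0.06 with the shRNA (SD, n = 3 each). Whether this row covers the deleted part of MED12 was not examined, so its values may not compare RNA amounts between the constructs. All 3 hairpin arrays lay below all 3 GFP arrays, but the log2 difference of -0.75 missed the threshold (limma, adjusted p = 0.730). Array medians ranged from 3.39 to 3.51, and the SD of all values on an array from 1.34 to 1.60. The 3 arrays with the narrowest spread were replicate 1 of the shRNA, GFP and deletion groups. Of 8 measured HEK293 markers, 6 had means over the 12 arrays above the 95th percentile (3.51) of 220 olfactory receptor rows, genes that are silent in most cells; KRT18 and LHX1 did not. The mean level of these 8 markers was 4.54 to 4.83 with GFP, 4.61 to 4.88 with full-length MED12, 4.67 to 4.83 with the deleted form and 4.43 to 4.63 with the shRNA. By the same mean over 12 arrays, 0 of 4 blood markers passed that level, although CD14 was above it in the GFP (3.57) and shRNA (3.60) groups, and 1 of 3 liver (APOA1), 1 of 4 fibroblast (COL1A1) and 1 of 2 epithelial markers (EPCAM) did.

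None of the 8 Hedgehog genes passed in any comparison. RNA came from many sorted cells at once, so a lower value from fewer expressing cells and from less RNA per cell cannot be told apart. The values came from 1 limma model of the 4 group means over all 12 arrays, with p-values adjusted by the Benjamini-Hochberg method over all 22011 rows and a threshold of 0.05. With full-length MED12 against GFP, 0 of 8 members passed (0.0136% of all rows), and 1 of 8 had an unadjusted p under 0.05 (2.8% of all rows). With the deleted form against GFP, 0 of 8 passed (0.00454% of all rows) and 0 of 8 had an unadjusted p under 0.05 (3.46%). With the shRNA against GFP, 0 of 8 passed (0.0681%) and 1 of 8 had an unadjusted p under 0.05 (5.04%). The F test among the 4 groups called 0 of 8 members (0.0863% of rows), and 0 of 8 had an unadjusted F test p under 0.05 (4.62% of rows). At this number of arrays the 95% intervals of the comparisons with GFP reached 0.29 to 0.62 log2 units to either side of the difference, before adjustment. Calls adjusted over all rows need larger differences than these intervals show: GLI3 at 0.33 and NKX2-2 at 0.78 lay outside their own half-widths and did not pass.

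**Figure D1:**
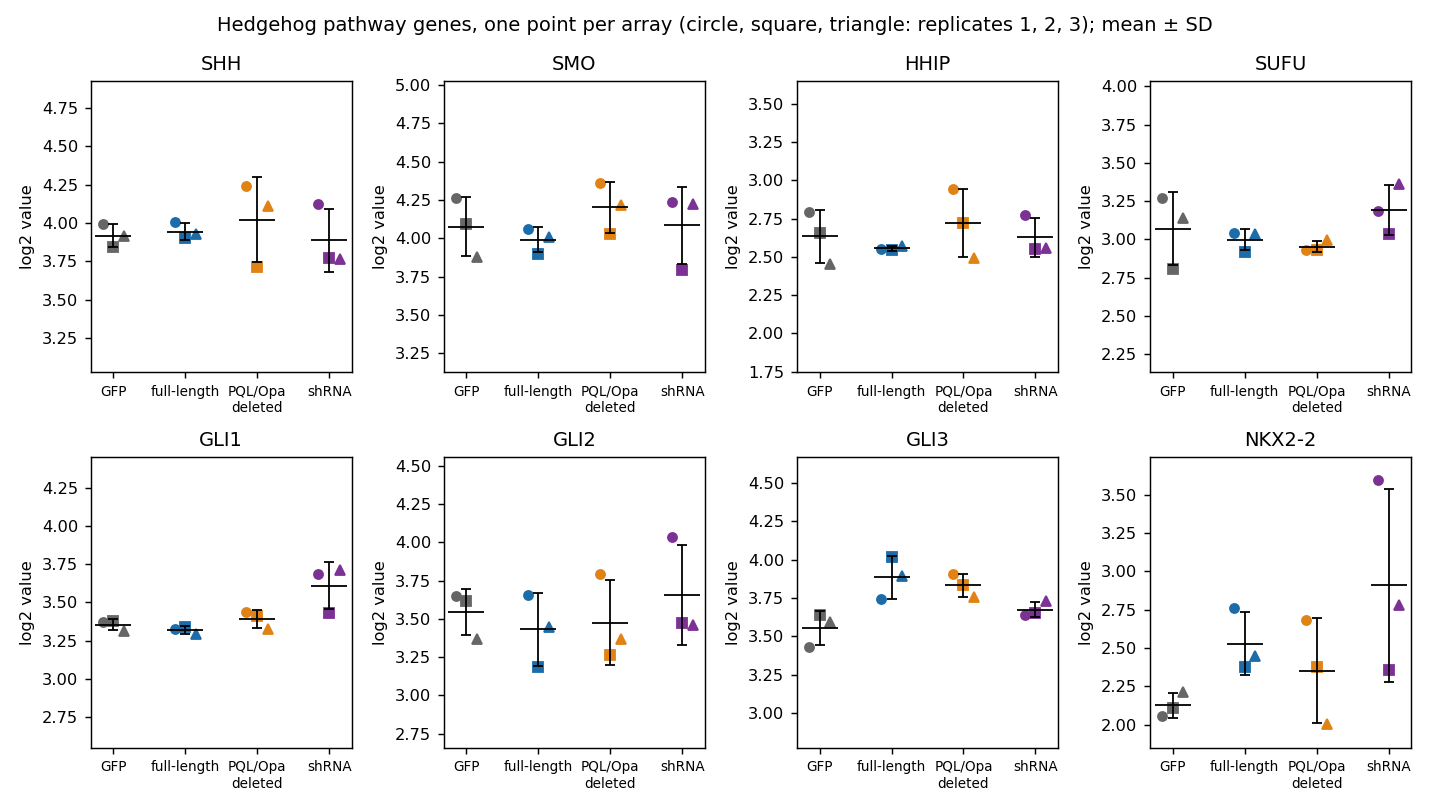
Log2 value of each Hedgehog gene on every array, by group, with the group mean and SD (n = 3) as black bars; each panel spans the same height of 1.9 log2 units, centred on that gene. GLI3 lies lowest with GFP and GLI1 highest with the shRNA, and NKX2-2 has its widest scatter in the shRNA group, from 2.36 to 3.60.

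SHH, the ligand, had similar means in all groups, but its intervals do not show equal levels. For the deleted form minus GFP the SHH interval was -0.27 to 0.48, which is 0.830-fold to 1.39-fold. Its log2 values were 3.99, 3.84 and 3.92 with GFP (replicates 1, 2 and 3), 4.004, 3.90 and 3.93 with full-length MED12, 4.24, 3.71 and 4.11 with the deleted form, and 4.13, 3.77 and 3.76 with the shRNA. The means ran from 3.89 (shRNA) through 3.92 (GFP) and 3.94 (full-length) to 4.02 (deletion), and every pair of groups overlapped. The differences from GFP were 0.03 ± 0.17 with full-length MED12, 0.10 ± 0.17 with the deleted form and -0.03 ± 0.17 with the shRNA (SE; limma, adjusted p = 1.000 in each). The hairpin interval of -0.40 to 0.35 corresponds to 0.757-fold to 1.27-fold.

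SMO, the receptor-like protein that carries the signal across the membrane, also overlapped between all groups. It read 4.26, 4.09 and 3.88 with GFP, 4.06, 3.90 and 4.01 with full-length MED12, 4.36, 4.03 and 4.22 with the deleted form, and 4.24, 3.79 and 4.22 with the shRNA. The order of the means was full-length (3.99), GFP (4.08), shRNA (4.08) and deletion (4.20), and no neighbours in that order were apart by more than their spread. The largest SMO difference was between the constructs, at -0.21 ± 0.17 for full-length minus deletion (SE; limma, adjusted p = 1.000, interval -0.59 to 0.17).

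HHIP, the decoy receptor that binds Hedgehog ligands at the cell surface, was at 2.79, 2.66 and 2.45 with GFP. It was at 2.55, 2.54 and 2.57 with full-length MED12, 2.94, 2.72 and 2.50 with the deleted form, and 2.78, 2.55 and 2.56 with the shRNA. Its groups overlapped throughout, with differences from GFP of -0.08, 0.09 and -0.01 in the same order (limma, adjusted p = 1.000 in each); the sign of each changed in some fits that left out arrays. Of the 220 olfactory receptor rows, 63 had a higher mean than HHIP, so HHIP is not shown to be above background and its differences are uncertain in size.

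SUFU, the cytoplasmic inhibitor of the GLI factors, was at 3.27, 2.81 and 3.14 with GFP, 3.04, 2.92 and 3.04 with full-length MED12, 2.93, 2.93 and 3.00 with the deleted form, and 3.19, 3.03 and 3.36 with the shRNA. The GFP arrays alone spanned the values of both constructs. The order of the means was deletion (2.95), full-length (3.00), GFP (3.07) and shRNA (3.19). The deletion and shRNA groups, at the ends of this order, did not overlap, which was so for 2 of 8 members and for 10.9% of all rows. Against GFP the differences were -0.07, -0.12 and 0.12, each with an SE of 0.16 (limma, adjusted p = 1.000 in each). Of the 220 olfactory receptor rows, 23 had a higher mean than SUFU, so SUFU is not shown to be above background and its differences are uncertain in size.

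GLI3, the partner of MED12 and the GLI protein best known as a repressor, had its lowest mean in the control and higher means with both MED12 constructs. It read 3.43, 3.64 and 3.59 with GFP, 3.74, 4.02 and 3.90 with full-length MED12, 3.91, 3.84 and 3.76 with the deleted form, and 3.64, 3.65 and 3.73 with the shRNA. All arrays of both overexpression groups lay above all GFP and all shRNA arrays, the nearest being full-length replicate 1 at 3.741 and shRNA replicate 3 at 3.731. The shRNA arrays lay above the GFP arrays as well, by 0.0027 between the nearest. A higher mean than that of GLI3 was found in 7 of the 220 olfactory receptor rows, so its level is not clear of their range.

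Against GFP, GLI3 differed by 0.33 ± 0.14 with full-length MED12 (SE; 1.26-fold; limma, unadjusted p = 0.0331, adjusted p = 1.000), and it was higher in 3 of 3 arrays. With the deleted form the difference was 0.28 ± 0.14 (1.22-fold; limma, unadjusted p = 0.0638, adjusted p = 1.000, higher in 3 of 3 arrays), and with the shRNA it was 0.12 ± 0.14 (limma, adjusted p = 1.000). Groups did not overlap for 2 of 8 members with full-length MED12 against GFP (7.72% of all rows), for 1 of 8 with the deletion (7.92%) and for 3 of 8 with the shRNA (8.56%), with the control lower each time. The constructs differed from each other by 0.05 ± 0.14 (SE; interval -0.25 to 0.35), and the shRNA from full-length MED12 by -0.21 ± 0.14 (limma, adjusted p = 0.763). The 3 GFP comparisons share the same control arrays, and a low GFP level enters all of them: GFP replicate 1, the lowest GLI3 value, is also 1 of the narrow arrays. Without the 3 narrow arrays the differences from GFP were 0.27 with full-length MED12, 0.18 with the deleted form and 0.08 with the shRNA. Without GFP replicate 1 alone the shRNA difference was 0.06. Over all fits these differences ranged from 0.27 to 0.40 (full-length), 0.18 to 0.32 (deletion) and 0.06 to 0.16 (shRNA). Group membership accounted for 72.5% of the variance of GLI3 over the 12 arrays and for 72.2% of that of GLI1, against a median of 22.6% over all rows. These are the highest shares among the members. The others ran from 10.3% (SHH) to 46.8% (NKX2-2), and SHH, GLI2, HHIP and SMO lay below the median of all rows. The F test among groups did not pass for GLI3 (limma, unadjusted p = 0.116, adjusted p = 1.000) or for GLI1 (unadjusted p = 0.184, adjusted p = 1.000).

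GLI2, the main activator, showed more scatter within groups than difference between them. It read 3.65, 3.61 and 3.37 with GFP, 3.66, 3.19 and 3.45 with full-length MED12, 3.79, 3.26 and 3.37 with the deleted form, and 4.03, 3.47 and 3.46 with the shRNA. All groups overlapped, replicate 1 was the highest array in each of the 4 groups, and 13.9% of the variance of GLI2 lay between groups. Its differences from GFP were -0.11, -0.07 and 0.11, each with an SE of 0.21 (limma, adjusted p = 1.000 in each).

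GLI1, the activator whose gene is itself a standard readout of Hedgehog signalling, had similar means in 3 groups and a higher mean in the hairpin arrays. Its values were 3.37, 3.38 and 3.31 with GFP, 3.33, 3.34 and 3.29 with full-length MED12, and 3.44, 3.41 and 3.32 with the deleted form. With the shRNA they were 3.68, 3.43 and 3.71, all 3 above every GFP and every full-length array but not above every deletion array, where replicate 1 (3.440) exceeded shRNA replicate 2 (3.432). The means were 3.32 (full-length), 3.35 (GFP) and 3.39 (deletion), and the arrays of each pair of these groups overlapped. The shRNA difference was 0.25 ± 0.13 from GFP (SE; 1.19-fold; limma, unadjusted p = 0.0811, adjusted p = 0.999, higher in 3 of 3 arrays). From full-length MED12 it was 0.29 ± 0.13 (limma, unadjusted p = 0.0517, adjusted p = 0.688). For full-length MED12 against GFP the GLI1 interval was -0.33 to 0.26, which is 0.798-fold to 1.20-fold. In all, 12 of the 220 olfactory receptor rows had a higher mean than GLI1, so a level above background is not shown for it either. The same count was 11 for GLI2, 5 for SHH and 3 for SMO, whose means also lie below the highest olfactory receptor mean (4.29).

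NKX2-2 had the largest single difference of the list, between the shRNA and GFP groups, and also the largest scatter, in the shRNA group. It read 2.05, 2.11 and 2.22 with GFP, 2.76, 2.38 and 2.45 with full-length MED12, 2.68, 2.37 and 2.00 with the deleted form, and 3.60, 2.36 and 2.78 with the shRNA. The full-length and shRNA arrays all lay above the GFP arrays, while the deletion arrays reached from below the lowest GFP array to above the highest. The difference from GFP was 0.78 ± 0.28 with the shRNA (SE; 1.72-fold; limma, unadjusted p = 0.0171, adjusted p = 0.930, higher in 3 of 3 arrays), 0.40 ± 0.28 with full-length MED12 and 0.23 ± 0.28 with the deleted form (limma, adjusted p = 1.000 in both). Without shRNA replicate 1, whose values had the smallest SD, the hairpin difference was 0.44, and without the 3 narrow arrays it was 0.41. Without shRNA replicate 2 it was 1.06, and over all fits it ranged from 0.41 to 1.06. Of the 220 olfactory receptor rows, 81 had a higher mean than NKX2-2, so its level is within the range of genes that are generally silent and the size of the difference is uncertain.

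**Figure D2:**
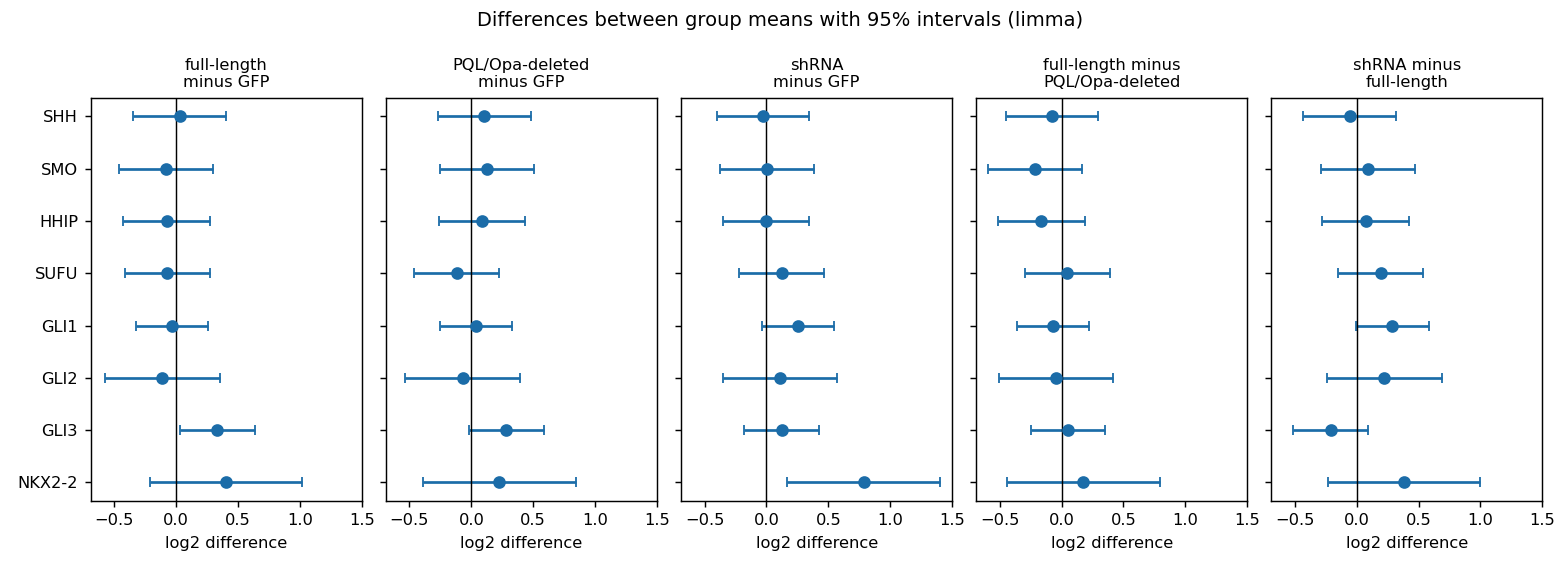
Log2 difference between group means of each Hedgehog gene in 5 comparisons (points) with its 95% interval from limma (bars). The intervals of GLI3 for full-length MED12 minus GFP (0.03 to 0.63) and of NKX2-2 for shRNA minus GFP (0.17 to 1.40) leave out 0 before adjustment; all others include it.

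The size of the members' median difference from GFP, and with full-length MED12 also its sign, depended on single arrays. With full-length MED12, 3 of 8 were above 0, with a median of -0.05 against -0.01 over all rows, of which 48.6% were above 0. Without GFP replicate 1, 6 of 8 were above 0 and the median was 0.016. With the deleted form, 6 of 8 were above 0, with a median of 0.10 against -0.01 over all rows, of which 48.4% were above 0. Without deletion replicate 1, 4 of 8 were above 0 and the median was 0.0031. With the shRNA, 6 of 8 were above 0, with a median of 0.12 against 0.02 over all rows, of which 54.4% were above 0. Without shRNA replicate 1, 4 of 8 were above 0 and the median was 0.029. Without shRNA replicate 2, 8 of 8 were above 0 and the median was 0.18. Without GFP replicate 1, 8 of 8 were above 0 with the shRNA and the median was 0.13. When 1 array was left out, the median ranged from 0.0031 to 0.15 with the deleted form and from 0.029 to 0.18 with the shRNA. GFP replicate 1, deletion replicate 1 and shRNA replicate 1 are the narrow arrays. These 3 comparisons share the GFP arrays.

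Comparisons that do not use the GFP arrays were made as well. Between the constructs, 0 of 8 members passed (0.00454% of rows; the 1 row that did was MED12 itself), 0 of 8 had an unadjusted p under 0.05 (1.9% of rows), and 0 of 8 had groups that did not overlap (6.91% of rows). The MED12 call between the constructs was lost in 9 of 12 fits that left out 1 array. Between the shRNA and full-length MED12, which lie farthest apart in MED12, 0 of 8 members passed (0.104% of rows) and 0 of 8 had an unadjusted p under 0.05 (7.17% of rows). In that comparison 2 of 8 had groups that did not overlap (12.1% of rows): GLI1, higher with the shRNA, and GLI3, lower. The vectors of the shRNA and full-length groups differ as well, so hairpin and vector cannot be told apart here either.

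Replicate number and array spread moved with several members. GLI2, SMO and SHH had their highest array in replicate 1 in all 4 groups, and HHIP and NKX2-2 in 3 of 4. Over the 12 arrays, Pearson's r between a member's value and the SD of all values on the array was -0.76 for GLI2, -0.70 for SMO, -0.70 for HHIP, -0.67 for NKX2-2, -0.64 for GLI1, -0.54 for SUFU and -0.46 for SHH, against a median of -0.24 over all rows. GLI3 was the exception, at 0.27. These are descriptions over arrays that also share groups and replicate numbers, and the part of array spread in the members' differences was not tested beyond the fits that rescaled arrays or left them out.

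**Figure D3:**
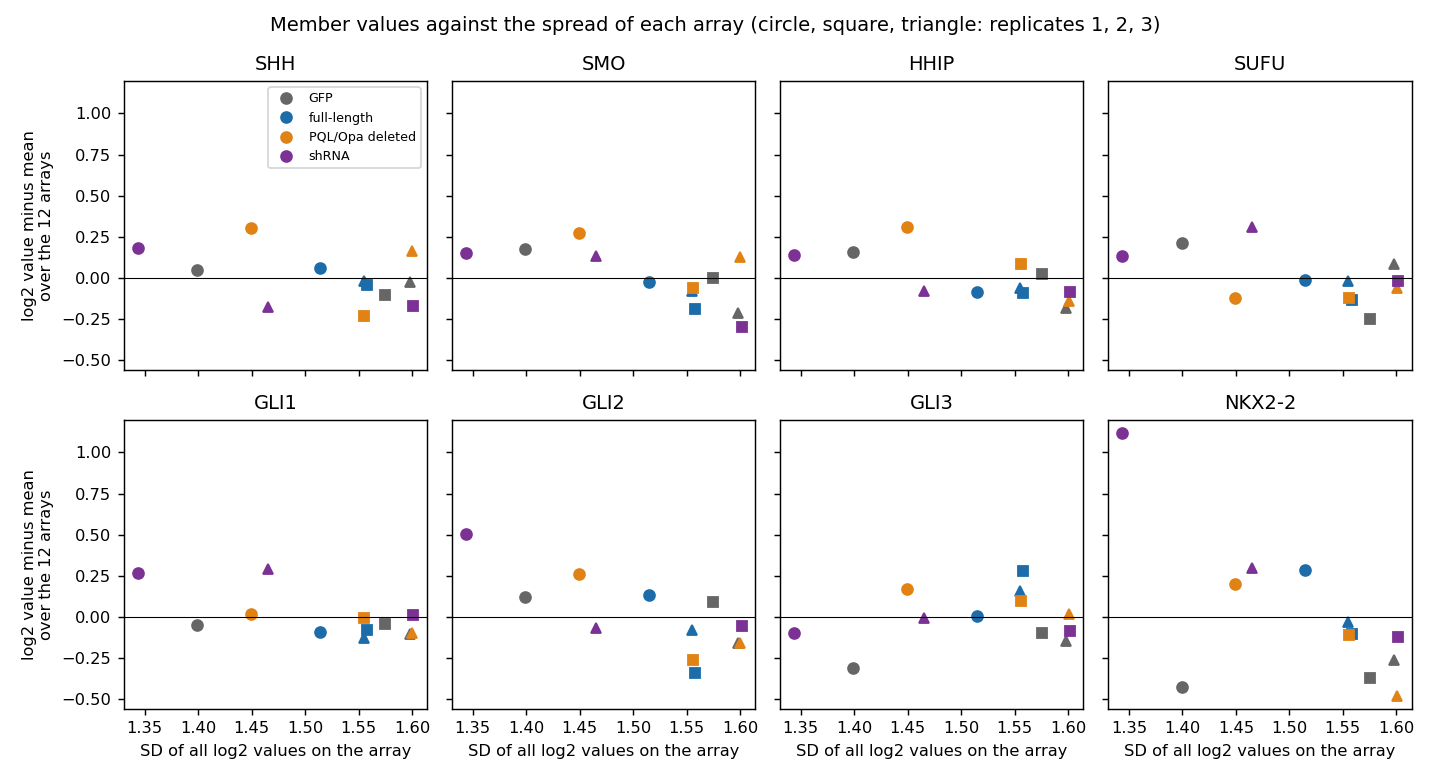
Value of each Hedgehog gene on every array, as the difference from its mean over the 12 arrays, against the SD of all log2 values on that array; colours mark groups and shapes mark replicates. GLI2, SMO and HHIP are high on the narrow arrays at the left, while GFP replicate 1, at an SD of 1.40, is low for GLI3 and NKX2-2.

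Several members varied together inside groups. After subtraction of group means, GLI2 varied with SHH (r = 0.79), NKX2-2 (r = 0.76), HHIP (r = 0.72) and SMO (r = 0.69), and GLI1 with SMO (r = 0.71) and NKX2-2 (r = 0.67), over the 12 arrays. These are the highest values among the member pairs, and r was not taken over pairs of all rows. Each gene in these pairs also moved with array spread, with r from -0.76 (GLI2) to -0.46 (SHH). The part of array spread in the pairs was not tested. GLI3 had lower values, with r from -0.44 (SUFU) to 0.22 (GLI1). SUFU was also low with HHIP (r = 0.0020), GLI2 (0.02), NKX2-2 (0.12) and SHH (0.20), and higher with GLI1 (0.32) and SMO (0.46). The rows with 1 symbol whose values were most like GLI3 over the 12 arrays were PHAX (r = 0.91), ZNF514 (r = 0.87) and PRCC (r = 0.86); inside groups the same r values were 0.79, 0.79 and 0.76. They are the top of a search over all single-symbol rows on only 12 arrays that share groups and spread.

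The wider pathway was read from 5 lists by role, 93 genes in all, of which 81 were measured. None of the 81 passed in any of the 5 comparisons (limma). At an unadjusted p under 0.05 there were 4 with full-length MED12 against GFP (4.94% of the 81, against 2.8% of all rows), 1 with the deleted form (1.23% against 3.46%) and 5 with the shRNA (6.17% against 5.04%).

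Among ligands and proteins of ligand release, 7 genes were measured and all had differences from GFP between -0.20 and 0.10, with medians of -0.04, -0.01 and 0.03 for the full-length, deletion and shRNA groups. SCUBE3, a secreted protein that helps release lipid-modified Hedgehog, had -0.20 with full-length MED12. The 9 measured receptors, co-receptors and ligand-binding proteins had medians of -0.08, 0.08 and 0.05. GAS1, a co-receptor that helps SHH bind, had 0.47 ± 0.18 with the shRNA (SE; limma, unadjusted p = 0.0242, adjusted p = 0.982), with arrays at 3.37 to 3.75 against 3.05 to 3.14 with GFP. CDON, another co-receptor, had 0.39 ± 0.17 for shRNA minus full-length MED12 (SE; limma, adjusted p = 0.681). Over the 12 arrays GAS1 averaged 3.28 and CDON 2.95, below the 95th percentile of the olfactory receptor rows (3.51). Neither is thus shown to be above background.

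The 13 measured genes of the cilium and of pathway trafficking had medians of 0.02, 0.07 and 0.02 against GFP, and 0 of them had an unadjusted p under 0.05 in any comparison. KIF3A, a subunit of the kinesin motor that builds cilia, had -0.50 ± 0.27 with the shRNA (SE; limma, adjusted p = 0.999). EVC, a ciliary protein that binds SMO, had 0.30 ± 0.17 with the deleted form.

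In the list of GLI factors, kinases and degradation, 27 genes were measured, with medians of -0.01, 0.02 and 0.08 against GFP. PRKACA, a catalytic subunit of protein kinase A, which phosphorylates GLI proteins and favours their repressor forms, had 0.36 ± 0.17 with full-length MED12 (SE; limma, unadjusted p = 0.0593, adjusted p = 1.000). It ranged from 3.997 to 4.46 there and from 3.72 to 3.95 with GFP. With the shRNA the smallest p-values were on the negative side. CUL3, the scaffold of the ubiquitin ligase that degrades GLI proteins, had -0.41 ± 0.16 (SE; limma, unadjusted p = 0.0276, adjusted p = 0.982). CSNK1A1, a casein kinase that acts on GLI proteins and on SMO, had -0.64 ± 0.29 (SE; limma, unadjusted p = 0.0453, adjusted p = 0.983). Its hairpin arrays lay between 4.41 and 5.52, against 5.49 to 5.73 with GFP.

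Of the GLI target genes, 27 were measured and 0 passed in either direction, with medians of 0.06, 0.05 and 0.07 against GFP where all rows had -0.01, -0.01 and 0.02. OLIG2, a neural tube transcription factor that Hedgehog signalling induces, had the smallest p of the targets with full-length MED12, at 0.89 ± 0.24 (SE; limma, unadjusted p = 0.00338, adjusted p = 1.000, higher in 3 of 3 arrays). Its arrays were at 4.04 to 4.54 with full-length MED12, 3.76 to 4.12 with the deleted form, 3.26 to 3.96 with the shRNA and 2.99 to 3.73 with GFP. Both construct groups thus lay above GFP, and the shRNA group overlapped with it. Of all rows, 7.72% had no overlap between full-length MED12 and GFP, and 7.92% had none between the deleted form and GFP. The GFP arrays of OLIG2 reached from below to above the 95th percentile of the olfactory receptor rows (3.51), whose highest mean was 4.29. A level of OLIG2 above background is thus not shown with GFP. The shRNA differed from full-length MED12 by -0.70 ± 0.24 (SE; limma, unadjusted p = 0.0141, adjusted p = 0.585).

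CCND2, a G1 cyclin, had 0.48 ± 0.19 with full-length MED12 (SE; limma, unadjusted p = 0.0272, adjusted p = 1.000). NKX6-2, a neural homeobox gene, differed in the other direction, by -0.61 ± 0.25 with the deleted form and by -0.60 ± 0.25 with full-length MED12 (SE; limma, adjusted p = 1.000 in both). FOXF1, a forkhead gene of mesoderm downstream of Hedgehog, had 0.42 ± 0.17 with the shRNA (SE; limma, unadjusted p = 0.0309, adjusted p = 0.982). RAB34, a small GTPase gene, had -0.40 ± 0.15 for shRNA minus full-length MED12 (SE; limma, adjusted p = 0.615). The levels of CCND2, NKX6-2, FOXF1 and RAB34 are not set against the olfactory receptor rows here, so a level above background is not shown for them.

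**Figure D4:**
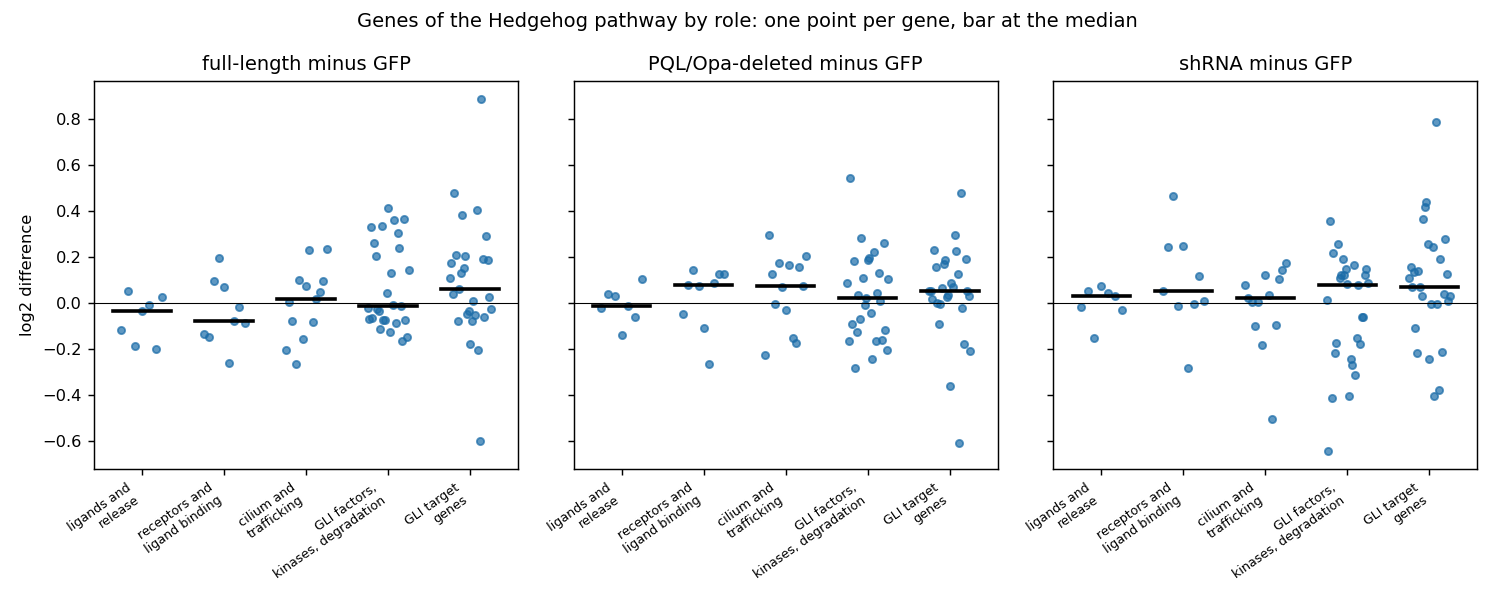
Log2 difference from GFP for each measured gene of 5 lists of Hedgehog pathway genes (points), with the median of each list as a bar, in the 3 comparisons with GFP. List medians lie between -0.08 and 0.08; the highest target gene is OLIG2 at 0.89 with full-length MED12 and NKX2-2 at 0.78 with the shRNA.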

How the data were processed

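The arrays are 1-colour and labelled with biotin. The authors deposited 1 log2 value per row and array; Partek, RMA and the build hg18 are listed in the submitters' processing notes. Versions, probe set level, background option and filters were not given in the sources used here. The log2 values were used as deposited, without a filter or offset, and 0 columns were left out. Rows were named from the platform annotation: 14432 rows had 1 symbol, 2408 several and 5171 none, and 14404 of the first were found in a RefSeq table by Entrez identifier.

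limma 3.58.1 in R 4.3.3 fitted 4 group means to all 12 arrays (lmFit and eBayes, 8 residual and 3.52 prior degrees of freedom), with 5 two-sided contrasts, and was tested on simulated data. Precision is limited by the number of arrays, with a median SE of 0.23 for a log2 difference. With 3 arrays a group, the smallest exact permutation p is 0.1. The labels call the replicates biological but do not say what separates them, so p-values measure the spread between these samples.

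As a check of pairing, deviations from group means were correlated between arrays of the same number. Every pair exceeded 0.1 between GFP and the full-length group (0.101 to 0.229) and between GFP and the deletion group (0.149 to 0.472), which was not so for the other comparisons; the labels do not say what a number marks.

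Members and lists were chosen with earlier results of these data known. By the naming rule all members and MED12 are named, and from each pathway list at most the 2 genes with the smallest p per comparison; NKX6-2 and OLIG2 are also given in groups outside it, chosen after their values were seen. Where a gene had several rows, the row with the highest mean was used. Alternatives covered normalization, centring, array spread, the samples fitted, a replicate block, moderation, a filter, the narrow arrays and leaving out each array.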

Additional observations from a re-analysis of the deposited data

How the results depend on the processing

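Each comparison was refitted under 20 alternatives, 12 of which left out 1 array. The count of members past the threshold was 0 in every fit of the 5 contrasts and of the F test (limma), and the smallest member adjusted p was 0.274, for NKX2-2 in shRNA minus GFP. Of 780 differences of single genes, 741 kept their direction and their side of the threshold, and 39 changed sign.

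Without the 3 narrow arrays the sign changed for GLI2 in full-length minus deletion (0.11) and shRNA minus GFP (-0.028), HHIP in full-length minus GFP (0.0016) and shRNA minus full-length (-0.0020), SHH in full-length minus deletion (0.035), SMO in full-length minus GFP (0.0059) and SUFU in full-length minus GFP (0.027). HHIP in shRNA minus full-length was -0.0085 with centring and equal spread and -0.035 with quantile normalization, and SMO in shRNA minus GFP was -0.028 with median centring.

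Rows past the threshold in shRNA minus GFP were 15, with 23 after quantile normalization and 4 with only those 2 groups. In full-length minus deletion there was 1, with 2 after quantile normalization, 3 with equal spread, 2 among rows at or above the median row, and 0 with median centring, with trend and robust moderation, or without the narrow arrays. In shRNA minus full-length there were 23, with 37 after quantile normalization and 2 with only those 2 groups. With the replicate block the counts were 2 in deletion minus GFP and 38 in shRNA minus full-length; it moved no other count by over 1.5 times and changed no member's call, and the smallest member adjusted p with the block was 0.942 for full-length, 0.773 for the deletion and 0.379 for the shRNA, each against GFP. Without the narrow arrays the members' median went from 0.14 to 0.026 in shRNA minus full-length, from 0.10 to 0.028 in deletion minus GFP and from 0.12 to 0.050 in shRNA minus GFP, and it changed sign in full-length minus GFP (-0.05 to 0.016) and in full-length minus deletion (-0.06 to 0.035). GLI1, SUFU, HHIP and NKX2-2 lie below the median row, so no members' median was taken there.

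When 1 array was left out, some members changed sign. For GLI2 the range was -0.23 to 0.0087 in full-length minus GFP, -0.16 to 0.11 in full-length minus deletion, -0.23 to 0.036 in deletion minus GFP and -0.0797 to 0.21 in shRNA minus GFP. For GLI3 the range was -0.015 to 0.12 in full-length minus deletion. For HHIP the range was -0.17 to 0.0016 in full-length minus GFP, -0.025 to 0.20 in deletion minus GFP, -0.002 to 0.11 in shRNA minus full-length and -0.096 to 0.073 in shRNA minus GFP. For SHH the range was -0.0096 to 0.066 in full-length minus GFP, -0.23 to 0.035 in full-length minus deletion, -0.0066 to 0.26 in deletion minus GFP, -0.18 to 0.0049 in shRNA minus full-length and -0.15 to 0.033 in shRNA minus GFP. For SMO the range was -0.19 to 0.0059 in full-length minus GFP and -0.092 to 0.15 in shRNA minus GFP. For SUFU the range was -0.20 to 0.027 in full-length minus GFP and -0.0091 to 0.22 in shRNA minus GFP. Rows past the threshold ranged from 5 to 20 in shRNA minus GFP, 0 to 3 in full-length minus deletion, 9 to 39 in shRNA minus full-length. The members' median ranged from -0.057 to 0.016 in full-length minus GFP, -0.11 to 0.035 in full-length minus deletion, 0.0031 to 0.15 in deletion minus GFP, 0.026 to 0.26 in shRNA minus full-length, 0.029 to 0.18 in shRNA minus GFP. The cause of these changes was not tested.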
